A study of Mus musculus with 2 samples.

Results

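The cells described here are phagocytes of AKT1.MYC mouse liver tumours that carried UMIs of Arg1, Thbs1, Chil3, Mmp12 and Cxcl3. They were taken from the AKT1.MYC library as barcodes with at most 20% mitochondrial UMIs and at least 1 UMI in at least 2 of those 5 genes. At least 1 UMI of Csf1r, Adgre1 or Gpnmb was also required, with UMIs in at most 1 of the Kupffer cell genes Clec4f, Vsig4, Timd4, Cd5l and Marco. S100a8 and S100a9 together had to stay below 0.5% of a cell's UMIs, and Krt19, Krt7, Epcam and Wfdc18 together below 0.25%. These limits kept 1554 cells, called members below, of 10766 AKT1.MYC barcodes and of 17078 barcodes in both libraries. The members were thus chosen by their own UMIs, so their levels of the rule's genes are a description and were not tested.

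Liver tumours were induced in C57BL/6 mice by hydrodynamic tail vein injection of oncogene plasmids with a Sleeping Beauty transposase plasmid, and were resected 14 weeks later. AKT1.MYC mice (labelled F3) received constructs for Akt1 (10 µg per mouse) and human c-Myc (10 µg per mouse) with 5 µg of the transposase plasmid. NRAS.MYC.ND mice (labelled F1) received constructs for human N-Ras (19 µg per mouse) and human c-Myc (1 µg per mouse) with 2 µg of the transposase plasmid. Tumour tissue was dissociated, dead cells were removed, and droplet-based single-cell RNA libraries were made, 1 per model. The model, the plasmid amounts and the library therefore cannot be told apart. The sources used here do not give the number of animals behind each library. With 1 library per group no difference below has a replicate check and none was tested. The intervals are 95% intervals and cover counting error only.

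Monocytes that enter an injured or tumour-bearing liver lose monocyte genes such as Ly6c2 and Ccr2 and take on macrophage genes such as those of complement C1q. Arg1 encodes arginase, which splits arginine into ornithine and urea, and Thbs1 encodes thrombospondin, a matrix glycoprotein of platelets and activated macrophages. Chil3 encodes the secreted chitinase-like protein Ym1, Mmp12 the macrophage elastase and Cxcl3 a chemokine that attracts neutrophils, while Gpnmb is a membrane glycoprotein of lipid-laden macrophages.

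The gate was narrowed in steps. Of 10313 AKT1.MYC barcodes within the mitochondrial limit, 3615 passed every limit other than the one on the 5 selecting genes. These are called the phagocyte gate, and the 1554 members were 43.0% of it (41.4 to 44.6%, exact Clopper-Pearson interval). The other 2061 cells of that gate are the nearest comparison within the library. In NRAS.MYC.ND, 1802 barcodes passed the phagocyte gate and 120 of them, or 6.66% (5.55 to 7.91%), met the full rule. Median depth was 6987 UMIs in members, 2378 in the other AKT1.MYC phagocytes and 6405 in the NRAS.MYC.ND phagocytes, and a deeper cell passes a rule of 1 UMI more easily. After every barcode was thinned to 1000 UMIs and gated anew, 306 of 1880 AKT1.MYC cells (16.3%, 14.6 to 18.0%) and 16 of 1064 NRAS.MYC.ND cells (1.504%, 0.862 to 2.43%) met the rule. The share was lower in both libraries at the fixed depth, and its intervals did not overlap between libraries.

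**Figure D1:**
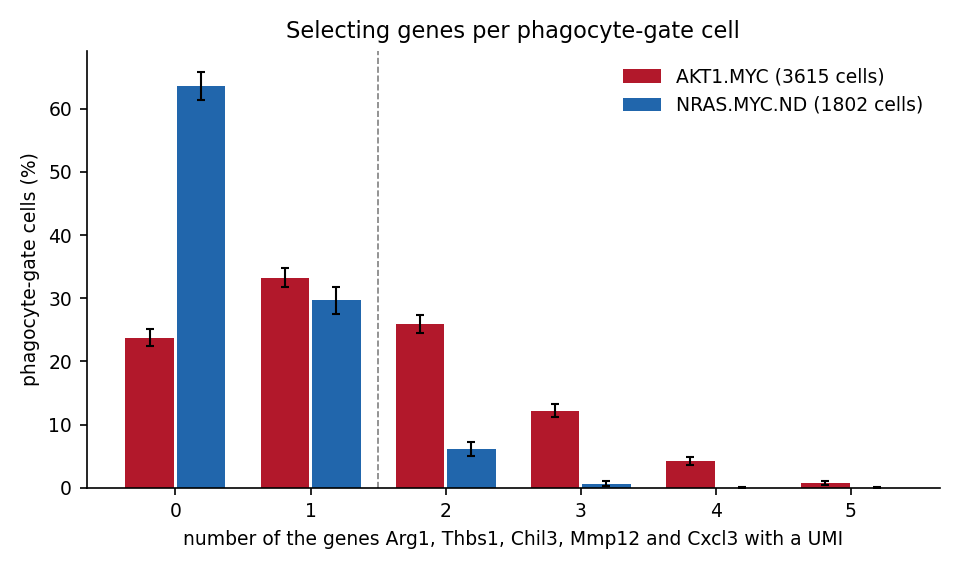
Share of phagocyte-gate cells (y axis, %) by how many of the 5 selecting genes had a UMI (x axis), in AKT1.MYC (red, 3615 cells) and NRAS.MYC.ND (blue, 1802 cells). Bars carry exact 95% intervals and the dashed line marks the limit of 2 genes. All 5 genes were seen in 25 AKT1.MYC cells and in 0 NRAS.MYC.ND cells, where 3 counts of the total allow up to 0.166%.

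Thbs1 was the selecting gene seen most often, in 1242 members (79.9%), and Chil3 was seen in 1138 (73.2%). Arg1 was seen in 747 members (48.1%), Mmp12 in 635 (40.9%) and Cxcl3 in 168 (10.8%). Most members therefore qualified through Thbs1 or Chil3, and the commonest single combination was Thbs1 with Chil3 alone, in 416 cells. Arg1, Thbs1 and Chil3 without the other 2 genes followed in 191 cells. Among the macrophage genes Csf1r, the receptor for colony-stimulating factor, was seen in 82.3% of members, the F4/80 gene Adgre1 in 57.0% and Gpnmb in 50.9%. Gpnmb alone admitted 149 members, in which neither of the other two was seen.

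Cells lay close to the limits on each side. Exactly 2 of the 5 genes were seen in 935 members, whose 5 genes summed to 1432 UMIs per 1000000 UMIs (CPM), and exactly 1 in 1202 cells just outside, at 445 CPM. Among members 515 had UMIs of 1 Kupffer gene, and 120 cells otherwise alike had 2. On the limit for S100a8 and S100a9, 35 members and 21 cells outside lay within 0.25 percentage points of it. On the epithelial limit, 334 members lay in the upper part of the allowed range and 166 cells in a range of equal width above it. Barcode sequences shared by both libraries numbered 17, of which 4 were members.

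The name monocyte-macrophage was checked against genes that the rule did not use, and leukocyte origin was measured apart from the monocyte and macrophage genes. Tyrobp, Fcer1g, Laptm5, Ptprc and Cd52, which leukocytes of many types express, made up at least 0.3% of UMIs in 1133 members (72.9%). In the other 421 members (27.1%) they did not, and these cells held 51.1% of all the members' UMIs, with a median of 15465 UMIs per cell against 6124 in the leukocyte-positive members. No gap separated the 2 kinds, since 140 members lay between 0.2% and 0.4%. In 342 of the 421 cells (81.2%) the keratins Krt8 and Krt18 outnumbered the leukocyte genes, in 230 (54.6%) hepatocyte markers did, in 119 (28.3%) fibroblast markers and in 45 (10.7%) endothelial markers. At least 1 of these 4 groups outnumbered the leukocyte genes in 394 of the 421 cells (93.6%) and in 43 of the leukocyte-positive members (3.795%).

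The 6 genes given as markers were all used by the rule, so their sums are a description and no check of the name. Arg1, Thbs1, Chil3, Mmp12, Gpnmb and Cxcl3 summed to 4497 CPM in the leukocyte-positive members and to 367 CPM in the 421 others. Those 421 lay near the 461 CPM of epithelial-gate cells and the 224 CPM of endothelial-gate cells of the same library. The epithelial, endothelial, T cell and neutrophil gates allowed no UMI of Csf1r, Adgre1 or Gpnmb, so Gpnmb adds nothing to their sums. The 6 genes were not particular to the members, as they summed to 3274 CPM in its neutrophil-gate cells. In its leukocyte-positive cells with at least 2 Kupffer genes they summed to 2142 CPM. The median leukocyte-positive member held 9 UMIs of the 5 selecting genes, against 4 in the 421 cells. A list of 10 macrophage markers, among them Cd68 and the C1q genes, summed to 16805 CPM in leukocyte-positive members and to 1252 CPM in the 421. A list of 7 monocyte markers separated them less, with 1363 CPM in leukocyte-positive members and 977 CPM in the 421. Ly6c2 was seen in 6.62% of the leukocyte-positive members and Ccr2 in 27.3%, whereas 79.7% held C1q genes at 0.3% of UMIs or more. C1qa was seen in 96.9% of leukocyte-positive members, but also in 88.9% of endothelial-gate and 87.9% of T cell-gate cells of the library. The 10 macrophage markers summed to 1437 CPM and 2244 CPM in those gates and to 3675 CPM in epithelial-gate cells. How far C1q UMIs from outside the cells raise the 79.7% was not tested. By these counts alone, the macrophage part of the name rests on more of the leukocyte-positive members than the monocyte part. The lysosomal glycoprotein gene Cd68 was seen in 83.9% of the leukocyte-positive members and in 46.6% of the rest. Markers of other leukocytes were rare: at least 2 T cell markers were seen in 7 leukocyte-positive members, at least 2 NK cell markers in 2, at least 2 B cell markers in 2 and at least 2 dendritic cell markers in 1. Results below are therefore given for leukocyte-positive cells, and the sets compared with the members were held to the same 0.3%. That left 1287 other AKT1.MYC phagocytes, 1394 NRAS.MYC.ND phagocytes and 99 NRAS.MYC.ND cells that met the full rule.

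**Figure D2:**
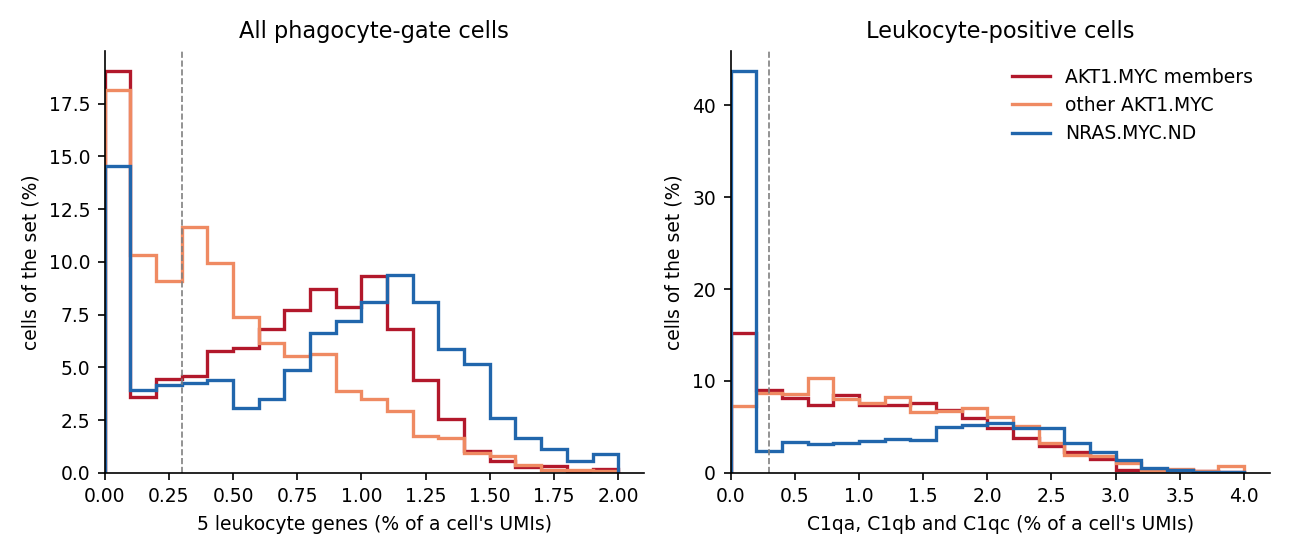
Share of each set's cells (y axis, %) by the summed share of 5 leukocyte genes in a cell's UMIs (left, x axis in %) and, in leukocyte-positive cells, by that of C1qa, C1qb and C1qc (right, x axis in %), for AKT1.MYC members (red), other AKT1.MYC phagocytes (orange) and NRAS.MYC.ND phagocytes (blue). Dashed lines mark 0.3%, and the last bin holds all higher values. On the left, 27.1% of members lie under the line. On the right, 20.3% of leukocyte-positive members, 11.0% of other AKT1.MYC phagocytes and 44.9% of NRAS.MYC.ND phagocytes lie under it.

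UMIs of the selecting genes also lay in other cell types of the AKT1.MYC library. At least 2 of the 5 selecting genes were seen in 55 of 198 endothelial-gate cells (27.8%), at a median of 5950 UMIs, and in 5 of 66 T cell-gate cells (7.58%), at a median of 2544 UMIs. Set at 1000 UMIs each, 461 of 2123 leukocyte-positive AKT1.MYC phagocytes (21.7%, 19.98 to 23.5%) carried at least 2 of the genes, against 5 of 192 endothelial-gate cells (2.60%, 0.851 to 5.97%), 2 of 58 T cell-gate cells (3.45%, 0.420 to 11.9%) and 32 of 452 epithelial-gate cells (7.08%, 4.89 to 9.85%). At the same depth it was 24 of 1361 NRAS.MYC.ND phagocytes (1.76%, 1.13 to 2.61%) and 0 of 443 NRAS.MYC.ND endothelial-gate cells, where the limit set by 3 counts of the total is a share of 0.677%. In 1006 NRAS.MYC.ND T cell-gate cells it was 0 as well. At 1000 UMIs, then, the phagocytes of each library stood above the other gates counted in the same library. Those other gates left out every cell with a UMI of Csf1r, Adgre1 or Gpnmb. How far this lowers their shares was not tested. Neutrophil-gate cells and Kupffer cells were not counted in this way.

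The rule's genes had these levels in leukocyte-positive cells. Arg1 (chromosome 10, 24915207 to 24927470, GRCm38) stood at 761 CPM in members, 22.3 CPM in the other AKT1.MYC phagocytes and 8.57 CPM in the NRAS.MYC.ND phagocytes. Thbs1 (chromosome 2, 118111876 to 118127133) stood at 781, 146 and 23.3 CPM in the same 3 sets. Mmp12 (chromosome 9, 7344397 to 7360461) stood at 699, 174 and 141 CPM, and Cxcl3 (chromosome 5, 90786101 to 90788093) at 86.7, 3.79 and 3.15 CPM. Arg1 was the gene furthest apart, and its level in members was 34.1 times that of the other phagocytes, as the choice of members favours. Chil3 (chromosome 3, 106147554 to 106167564) had another order, with 1504 CPM in members, 176 CPM in the other AKT1.MYC phagocytes and 669 CPM in the NRAS.MYC.ND phagocytes. The 99 NRAS.MYC.ND cells that met the same rule held 3256 CPM of Chil3, more than the members, but 40.4 CPM of Arg1 and 245 CPM of Thbs1, fewer than the members. Of those 99 cells 89.9% were seen with Chil3 and 18.2% with Arg1, so the same rule took in cells with other genes in the other library. Gpnmb, used by the rule for both sets, stood at 664 CPM in members, 373 CPM in the other AKT1.MYC phagocytes and 123 CPM in the NRAS.MYC.ND phagocytes. Chil3 has near-identical paralogs, which makes its counts less certain, and the paralog Chil4 held 1 UMI in the leukocyte-positive members.

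**Figure D3:**
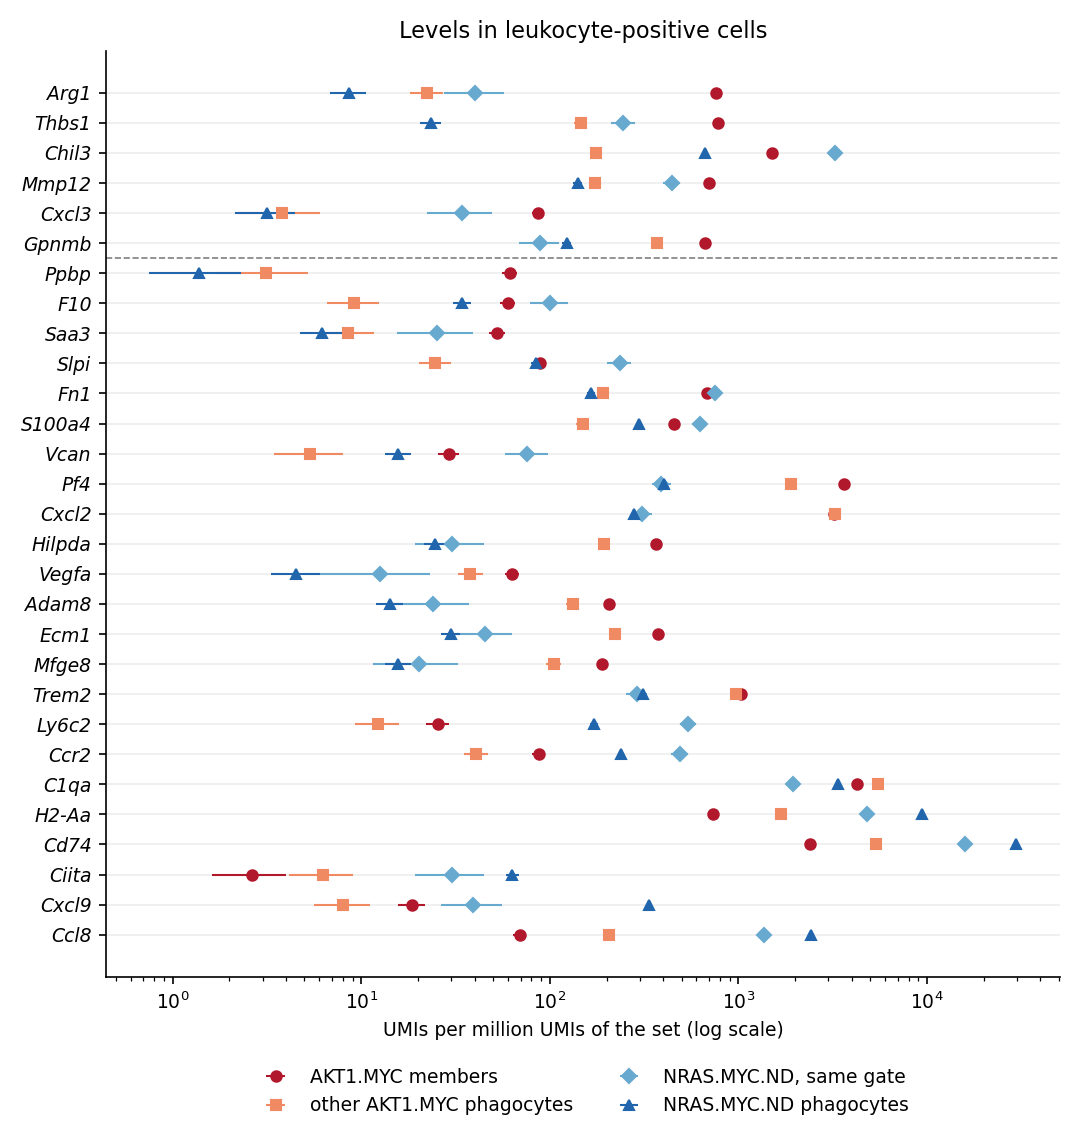
Level of each gene (x axis, CPM, UMIs per 1000000 UMIs of the set, log scale) in leukocyte-positive AKT1.MYC members (red circles), other AKT1.MYC phagocytes (orange squares), NRAS.MYC.ND cells of the same gate (light blue diamonds) and all NRAS.MYC.ND phagocytes (blue triangles), with exact 95% Poisson intervals. Genes above the dashed line were used by the rule. Cxcl2 is nearly level between members and other AKT1.MYC phagocytes, at 3219 and 3272 CPM, whereas Ppbp stands at 61.4 and 3.12 CPM.

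Against the other AKT1.MYC phagocytes, few genes outside the rule differed by much. Of 13990 genes with at least 10 UMIs over both sets, 353 (2.52%) were at least 2-fold higher in members and 751 (5.37%) at least 2-fold lower, and the median log2 ratio over all of them was -0.11. Members were also the deeper cells, at a median of 6124 UMIs against 2114. The genes that met the rule for naming were 6 higher ones, Ppbp, F10, Saa3, Slpi, Fn1 and S100a4, and 7 lower ones, Ccl8, Ccl5, Cd69 and the class II genes H2-Eb1, H2-Aa, Cd74 and H2-Ab1.

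Ppbp, which encodes the precursor of a neutrophil-attracting platelet chemokine, led the higher genes, with 61.4 CPM in members, 3.12 CPM in the other AKT1.MYC phagocytes and 1.38 CPM in the NRAS.MYC.ND phagocytes. That is a log2 ratio of 4.30 (3.54 to 5.18) within the library. Pf4, the neighbouring gene for platelet factor 4, stood at 3629, 1901 and 405 CPM in the same sets and stayed under 2-fold within the library (log2 ratio 0.93, 0.90 to 0.97). Cxcl2 and Cxcl1, whose products also attract neutrophils, were close between members and other phagocytes of AKT1.MYC and lower in NRAS.MYC.ND. Cxcl2 held 3219, 3272 and 280 CPM in these 3 sets, and Cxcl1 95.9, 99.0 and 12.6 CPM. Neutrophil-gate cells of AKT1.MYC held 24179 CPM of Cxcl2, above every phagocyte set. Of the 6 measured neutrophil-attracting CXC genes outside the rule, 1 was at least 2-fold higher in members than in the other AKT1.MYC phagocytes and 5 than in NRAS.MYC.ND phagocytes, beside 2.52% and 11.1% of all genes measured. At the fixed depth used for the gates above, Cxcl2 was seen in 68.0% of members and 13.6% of NRAS.MYC.ND phagocytes. It was also seen in 31.8% of endothelial-gate and 39.7% of T cell-gate cells of AKT1.MYC. Pf4 was seen in 67.3%, 17.3%, 28.6% and 37.9% of these sets in turn. Ppbp was seen in 1 of 192 endothelial-gate and 0 of 58 T cell-gate cells there. How far UMIs from outside the phagocytes bear on the difference between libraries was not tested.

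These chemokine genes lie side by side on chromosome 5, and their start sites are shown because Cxcl3 was 1 of the genes that chose the members, Ppbp, outside the rule, was higher in members than in the other AKT1.MYC phagocytes, and Cxcl2 was nearly level. Each sequence is the plus strand of 300 bases around the gene's start, from RefSeq on GRCm38.p6, the assembly also called mm10. Cxcl3 is chr5:90785851-90786150, Cxcl2 is chr5:90903649-90903948 and Ppbp is chr5:90768268-90768567. Capitals mark matches to an NF-kappaB motif, GGGA and TTCC with any 2 bases between them, searched on both strands.
Cxcl3: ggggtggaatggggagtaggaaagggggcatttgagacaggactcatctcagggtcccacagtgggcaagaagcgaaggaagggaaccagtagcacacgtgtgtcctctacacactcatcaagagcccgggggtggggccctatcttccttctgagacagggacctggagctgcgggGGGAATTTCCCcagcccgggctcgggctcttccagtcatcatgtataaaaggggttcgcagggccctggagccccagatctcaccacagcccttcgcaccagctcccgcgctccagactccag
Cxcl2: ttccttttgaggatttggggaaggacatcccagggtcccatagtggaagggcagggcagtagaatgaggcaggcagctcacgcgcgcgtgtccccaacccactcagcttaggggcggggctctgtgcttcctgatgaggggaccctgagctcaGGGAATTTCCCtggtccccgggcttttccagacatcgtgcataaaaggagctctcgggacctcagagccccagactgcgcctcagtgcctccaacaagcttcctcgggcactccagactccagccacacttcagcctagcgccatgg
Ppbp: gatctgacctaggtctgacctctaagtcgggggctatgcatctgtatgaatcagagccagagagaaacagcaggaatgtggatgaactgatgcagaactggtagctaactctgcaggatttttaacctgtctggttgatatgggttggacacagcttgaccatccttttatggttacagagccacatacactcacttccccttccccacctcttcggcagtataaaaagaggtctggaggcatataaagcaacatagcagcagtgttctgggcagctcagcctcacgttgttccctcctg
The Cxcl3 and Cxcl2 windows each held 2 overlapping matches, 1 per strand, and the Cxcl1 window did too, whereas the Ppbp and Pf4 windows held none of these letters. Among 32851 promoter windows of the same length 482 (1.47%) held the motif. Windows for Arg1, Thbs1 and Fn1 were not analysed here.

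Clotting, matrix and protease genes were among the higher ones. F10, the gene of clotting factor X, stood at 60.0 CPM in members, 9.15 CPM in the other AKT1.MYC phagocytes and 34.3 CPM in the NRAS.MYC.ND phagocytes (log2 ratio within the library 2.71, 2.25 to 3.21). F7, for factor VII, stood at 20.4, 7.14 and 2.66 CPM. Of 13 measured clotting and plasminogen genes 3 were at least 2-fold higher than in the other AKT1.MYC phagocytes and 0 lower, and 7 higher and 1 lower than in NRAS.MYC.ND, where 2.52% and 11.1% of all genes were higher. The list's median log2 ratio was 0.35 within the library and 1.06 against NRAS.MYC.ND. Of 19 matrix and adhesion genes 2 were higher within the library, and 9 were higher and 2 lower against NRAS.MYC.ND. Of 23 protease and inhibitor genes 3 were higher within the library, and 9 were higher and 1 lower against NRAS.MYC.ND. F13a1, for the factor that cross-links fibrin, reached 382 CPM in members, 300.5 CPM in the other AKT1.MYC phagocytes and 81.5 CPM in NRAS.MYC.ND. Fn1, the fibronectin gene, stood at 679, 192 and 165 CPM in the 3 sets, and Vcan, for the matrix proteoglycan versican, at 29.1, 5.35 and 15.8 CPM. Epithelial-gate cells of AKT1.MYC also held 430.2 CPM of Fn1. Slpi, an inhibitor of secreted leukocyte proteases, stood at 89.2, 24.8 and 84.7 CPM, and Mmp8, a collagenase, at 30.4, 4.24 and 18.7 CPM. Mmp8 is also on a list of 8 neutrophil markers, which summed to 432, 454 and 174 CPM in the 3 sets. In neutrophil-gate cells of AKT1.MYC they summed to 61729 CPM, and their part in these values was not tested. Saa3, an acute-phase gene of macrophages, stood at 52.6, 8.48 and 6.20 CPM, and S100a4, a calcium-binding protein gene of motile leukocytes, at 458, 149 and 298 CPM.

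Over all leukocyte-positive cells, monocyte genes differed in direction between the 2 comparisons. The comparison with NRAS.MYC.ND is given further below for C1q-high and C1q-low cells apart, and it was weaker in C1q-high cells. Of 19 genes on the monocyte list 7 were at least 2-fold higher within the library and 0 lower, with a median log2 ratio of 0.68, and 4 were higher and 10 lower against NRAS.MYC.ND, with a median of -1.04. Of all genes 2.52% were higher and 5.37% lower within the library, and 11.1% higher and 14.6% lower against NRAS.MYC.ND. Ly6c2, a surface antigen of classical monocytes, stood at 25.5 CPM in members, 12.3 CPM in the other AKT1.MYC phagocytes and 171 CPM in the NRAS.MYC.ND phagocytes. Ccr2, the receptor that draws monocytes out of bone marrow, stood at 87.4, 40.8 and 239 CPM, and Plac8 at 152, 95.0 and 876 CPM. The 99 NRAS.MYC.ND cells of the same gate were higher still, with 542 CPM of Ly6c2 and 1945 CPM of Plac8. Kupffer cell markers used by the rule summed to 81.1 CPM in members, 144 CPM in the other AKT1.MYC phagocytes and 513 CPM in NRAS.MYC.ND. The other Kupffer list genes had a median log2 ratio of -0.61 within the library and of -1.54 against NRAS.MYC.ND.

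Genes of class II antigen presentation were the lowest group within the library and between libraries. Of 11 measured, 7 were at least 2-fold lower in members than in the other AKT1.MYC phagocytes and 0 higher, with a median log2 ratio of -1.16, beside 5.37% of all genes lower. Against NRAS.MYC.ND 9 were lower and 0 higher, with a median of -3.20, beside 14.6%. Dendritic cell markers, whose cells are rich in class II, summed to 5.37 CPM in members, 19.6 CPM in the other AKT1.MYC phagocytes and 123 CPM in NRAS.MYC.ND, and their part in this was not tested. H2-Aa, for an alpha chain, stood at 730 CPM in members, 1676 CPM in the other AKT1.MYC phagocytes and 9458 CPM in the NRAS.MYC.ND phagocytes. Cd74, the invariant chain that guides class II molecules, stood at 2393, 5364 and 29724 CPM. Ciita, the transactivator of class II genes, was detected thinly, with 2.62, 6.25 and 63.3 CPM. Both comparisons thus ran in 1 direction, with the other AKT1.MYC phagocytes between the members and NRAS.MYC.ND.

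Interferon response and class I genes separated the libraries more than they separated members from their neighbours. Of 24 interferon response genes 22 were at least 2-fold lower in members than in NRAS.MYC.ND phagocytes and 0 higher (median log2 ratio -1.91), beside 14.6% of all genes lower. Within the library 4 were lower and 1 higher (median -0.48), beside 5.37% and 2.52% of all genes. Gbp2, a guanylate-binding protein gene, stood at 9.12 CPM in members, 11.2 CPM in the other AKT1.MYC phagocytes and 93.0 CPM in NRAS.MYC.ND. Cxcl9, a chemokine gene that answers to interferon gamma and attracts T cells, was the gene that went the other way within the library, at 18.6 CPM in members, 8.03 CPM in the other AKT1.MYC phagocytes and 336 CPM in NRAS.MYC.ND. Of 12 class I genes 10 were lower than in NRAS.MYC.ND and 0 within the library. Ccl8, a chemokine gene of resident macrophages, stood at 69.2, 207 and 2419 CPM in the 3 sets. Ccl5, a chemokine gene of T and NK cells, stood at 61.7, 178 and 2450 CPM, beside 10424 CPM in T cell-gate cells of AKT1.MYC. Cd69, an early activation marker gene of lymphocytes, stood at 27.6, 66.9 and 90.0 CPM, beside 457 CPM in those T cell-gate cells.

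Against NRAS.MYC.ND phagocytes 1650 of 14918 genes (11.1%) were at least 2-fold higher in members and 2180 (14.6%) at least 2-fold lower, around a median log2 ratio of -0.07. The 10 highest genes by the rule for naming were Ppbp, AA467197, Hilpda, Adam8, Vegfa, Ecm1, Mfge8, Ctsk, Cxcl2 and Trem1. Between members and the other AKT1.MYC phagocytes all of these but Ppbp differed by about 2-fold or less. Hilpda, a lipid droplet protein gene that responds to low oxygen, stood at 366 CPM in members, 194 CPM in the other AKT1.MYC phagocytes and 24.6 CPM in NRAS.MYC.ND. Vegfa, the growth factor for blood vessels, stood at 63.1, 37.9 and 4.53 CPM, and Adam8, a membrane metalloprotease gene, at 206, 132 and 14.2 CPM. Mfge8, which bridges phagocytes to dying cells, stood at 190, 105 and 15.8 CPM. Hilpda reached 177 CPM in T cell-gate and 133 CPM in epithelial-gate cells of AKT1.MYC, and Mfge8 349 CPM in endothelial-gate cells. UMIs of these 2 were thus also seen outside the phagocytes there, and whether those cells expressed them was not tested. AA467197 and Trem1, a receptor that amplifies inflammation, reached 874 and 894 CPM in neutrophil-gate cells.

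By list, hypoxia genes led among the higher groups after the CXC chemokines. Of 17 hypoxia genes 10 were at least 2-fold higher in members than in NRAS.MYC.ND and 0 lower, with a median log2 ratio of 1.09. Within the library 0 of 17 passed 2-fold, with a median of 0.34. Beside this and the next lists, 11.1% of all genes were higher and 14.6% lower against NRAS.MYC.ND. Within the library the shares were 2.52% and 5.37%. Bnip3, a mitophagy receptor gene, stood at 80.6 CPM in members, 49.3 CPM in the other AKT1.MYC phagocytes and 28.4 CPM in NRAS.MYC.ND. Glycolysis genes had 5 of 16 higher and 0 lower against NRAS.MYC.ND, and 0 of 16 past 2-fold within the library at a median of 0.51. Pgk1, phosphoglycerate kinase, stood at 583, 300.0 and 196 CPM. Among 24 inflammatory genes 9 were higher and 2 lower than in NRAS.MYC.ND. Il1b, the interleukin 1 beta gene, stood at 1332 CPM in members, 1336 CPM in the other AKT1.MYC phagocytes and 469 CPM in NRAS.MYC.ND, while Osm, for oncostatin M, stood at 171, 93.9 and 26.3 CPM.

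Lipid-associated macrophage genes had 7 of 17 higher and 2 lower than in NRAS.MYC.ND, beside 11.1% and 14.6% of all genes, and 2 of 17 higher within the library, beside 2.52%. Trem2, a lipid receptor of such macrophages, stood at 1028 CPM in members, 978 CPM in the other AKT1.MYC phagocytes and 313 CPM in NRAS.MYC.ND, and Fabp5, a fatty acid carrier, at 1152, 568 and 413 CPM. Spp1, for osteopontin, stood at 6625, 4714 and 366 CPM, but epithelial-gate cells of AKT1.MYC held 21963 CPM. Duct and tumour epithelium markers as a whole summed to 1707 CPM in leukocyte-positive members, 2326 CPM in the other AKT1.MYC phagocytes and 144 CPM in NRAS.MYC.ND, and their part in the differences between libraries was not tested.

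Around Arg1 itself, the other arginine and polyamine genes stayed near the share of all genes within the library. Of 16 measured, 0 passed 2-fold in either direction there, with a median log2 ratio of 0.04. Beside them 2.52% of all genes were higher and 5.37% lower, so a count of 0 says little about this list. Against NRAS.MYC.ND 3 were higher, the second arginase gene Arg2, the ornithine decarboxylase gene Odc1 and Azin1, and 2 were lower, Ass1 and Sat1, which is near the 11.1% and 14.6% of all genes. Odc1, the entry enzyme of polyamine synthesis, stood at 116 CPM in members, 121 CPM in the other AKT1.MYC phagocytes and 53.1 CPM in NRAS.MYC.ND. The hepatocyte urea cycle gene Cps1 was near 0 in members, at 0.875 CPM, and the inducible nitric oxide synthase gene Nos2 at 0.25 CPM. Alternative activation genes other than Chil3 were not higher as a list, with 0 of 13 higher and 1 lower within the library and 3 of 15 higher and 7 lower against NRAS.MYC.ND. The counts within the library are near the 2.52% and 5.37% of all genes there. Retnla, often measured beside Arg1 and Chil3, held 0 UMIs in 8001527 UMIs of the leukocyte-positive members, where 3 counts of that total allow up to 0.3749 CPM.

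**Figure D4:**
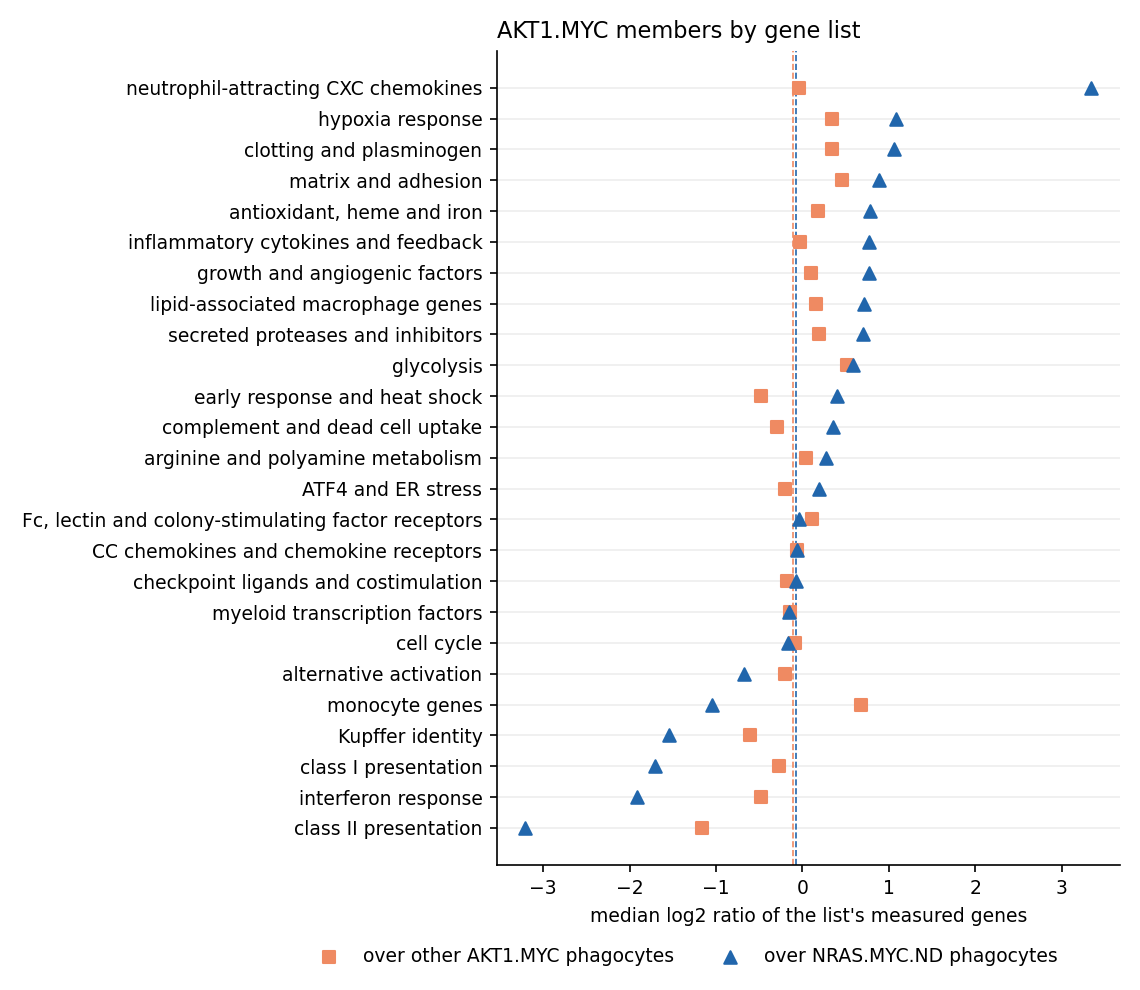
Median log2 ratio of each list's measured genes (x axis), leukocyte-positive AKT1.MYC members over other leukocyte-positive AKT1.MYC phagocytes (orange squares) and over leukocyte-positive NRAS.MYC.ND phagocytes (blue triangles), genes of the rule left out. Dashed lines mark the median over all genes of each comparison, -0.11 and -0.07. The class II list is lowest in both, at -1.16 and -3.20, and the monocyte list has opposite signs, at 0.68 and -1.04.

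Transcription factors (26 genes), antioxidant and iron genes (19), ATF4 and ER stress genes (12) and cell cycle genes (17) had 0 genes past 2-fold within the library. Against NRAS.MYC.ND the antioxidant list had 6 of 19 higher and 2 lower, with a median log2 ratio of 0.78. Of 17 growth and angiogenic factors 7 were higher and 2 lower against NRAS.MYC.ND (median 0.77), and 3 higher and 1 lower within the library (median 0.10). Among all genes 11.1% were higher and 14.6% lower against NRAS.MYC.ND, and 2.52% and 5.37% within the library. Of 16 early response and heat shock genes 0 passed 2-fold within the library, at a median of -0.48. Among growth factors Areg, the amphiregulin gene, stood at 28.2 CPM in members, 12.5 CPM in the other AKT1.MYC phagocytes and 2.66 CPM in NRAS.MYC.ND. Nt5e, the CD73 gene whose product makes adenosine, stood at 14.7, 5.35 and 1.67 CPM. Cd274, the PD-L1 gene, was nearly level within the library and lower than in NRAS.MYC.ND, at 19.7, 19.6 and 41.7 CPM.

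Cell makeup differed between the libraries, and this bears on the comparison with NRAS.MYC.ND. C1qa, C1qb and C1qc together were under 0.3% of UMIs in 20.3% of members, 11.0% of other AKT1.MYC phagocytes and 44.9% of NRAS.MYC.ND phagocytes. C1qa was also seen in 87.9% of T cell-gate cells of AKT1.MYC and in 28.3% of those of NRAS.MYC.ND. How far C1q UMIs from outside the phagocytes bear on the shares under 0.3% was not tested. T cell markers summed to 16.5 CPM in members and 541 CPM in NRAS.MYC.ND phagocytes, and dendritic cell markers to 5.37 and 123 CPM. The 10 lowest genes against NRAS.MYC.ND were Cd7, Ccl5, Cd209a, Ccl8, Ciita, Klrk1, Cxcl9, Nkg7, Klrd1 and Calhm6, and several of them are genes of lymphocytes or dendritic cells. With C1q-high cells alone in both libraries (903 members and 768 NRAS.MYC.ND cells), the class II median was -2.79 and 19 of 24 interferon genes were lower, beside 11.7% of all genes. In C1q-low cells (230 members and 626 NRAS.MYC.ND cells) the class II median was -2.80 and 22 of 24 interferon genes were lower, beside 18.9% of all genes. The hypoxia list had medians of 1.29 on the C1q-high side and 1.31 on the C1q-low side. Of 19 monocyte genes 8 were higher and 8 lower on the C1q-high side (median -0.20), beside 12.7% and 11.7% of all genes. On the C1q-low side 5 were higher and 9 lower (median -0.99), beside 9.47% and 18.9%. Monocyte markers summed to 1011 CPM in members and 472 CPM in NRAS.MYC.ND on the C1q-high side. On the C1q-low side they summed to 2971 and 3320 CPM. The split did not remove the other cell types' markers. On the C1q-high side T cell markers summed to 7.16 CPM in members and 177 CPM in NRAS.MYC.ND, and hepatocyte markers to 385 and 2348 CPM. On the C1q-low side dendritic cell markers summed to 18.1 CPM in members and 276 CPM in NRAS.MYC.ND, and T cell markers to 59.2 and 1112 CPM. Their part in these values was not tested.

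Within AKT1.MYC the class II difference lay mostly on the C1q-low side. There Cd74 stood at 2373 CPM in 230 members and 16413 CPM in 141 other phagocytes, and H2-Aa at 815 and 5764 CPM. The same 230 members held 18.1 CPM of dendritic cell markers against 109 CPM in the 141 others, and 59.2 against 264 CPM of T cell markers, whose part was not tested. On the C1q-high side Cd74 stood at 2397 CPM in 903 members and 3819 CPM in 1146 other phagocytes, and H2-Aa at 712 and 1105 CPM, beside 2.59 and 7.12 CPM of dendritic cell markers. Members thus had like levels of both genes on either side, while the other AKT1.MYC phagocytes did not.

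The members themselves were not uniform. To compare them at 1 depth, 864 leukocyte-positive members of at least 3000 UMIs were thinned to 3000. Over all 1377 leukocyte-positive AKT1.MYC phagocyte-gate cells treated in this way, Thbs1 was seen in 47.0%, Chil3 in 38.7%, Arg1 in 26.1%, Mmp12 in 21.6% and Cxcl3 in 4.58%. In 139 endothelial-gate cells the same genes were seen in 23.02%, 18.7%, 7.19%, 8.63% and 0%, where 3 counts of the total allow up to 2.16%. The phagocytes stood above that level for each gene, by the smallest factor for Thbs1 and Chil3. The endothelial gate left out cells with a UMI of Csf1r, Adgre1 or Gpnmb, whose effect on that level was not tested. The rule fixes that members share these genes, so pairs were counted over all 1377 cells. Arg1 was seen in 81.0% (69.1 to 89.8%) of the 63 cells with Cxcl3 and in 23.5% (21.2 to 25.9%) of the 1314 without. Thbs1 was seen in 81.0% and 45.4% of the same cells, and Chil3 in 65.1% and 37.4%. Chil3 was seen in 53.2% (49.2 to 57.1%) of cells with Thbs1 and 25.9% (22.7 to 29.2%) of those without. Mmp12 went the other way and was seen in 16.1% (13.1 to 19.5%) of cells with Chil3 and 25% (22.1 to 28.1%) of those without. The 5 genes therefore did not mark 1 uniform set of cells.

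Members grouped by each selecting gene carried different companions, as the plot of differences among members shows, and these values are a description of cells chosen by the same counts. The 339 members with Arg1 held 170 CPM of Ppbp against 6.35 CPM in the 525 without, and 6423 against 1660 CPM of Pf4. Pdpn, for podoplanin, stood at 61.9 against 10.2 CPM, the chemokine gene Ccl24 at 161 against 29.8 CPM, and Hmox1, heme oxygenase, at 1820 against 583 CPM. Of 16 hypoxia genes 4 were at least 2-fold higher with Arg1 and 0 lower (median log2 ratio 0.58), with Hilpda at 616 against 235 CPM and Ero1l at 72.8 against 23.5 CPM. H2-Aa was lower, at 330 against 983 CPM, as was Plac8, at 73.7 against 292 CPM. The 59 members with Cxcl3 held 4395 CPM of Arg1 against 508 CPM in the 805 without, and 401 against 46.4 CPM of Ppbp. Areg stood at 186 against 19.9 CPM there and Slc7a11, the cystine importer gene, at 362 against 75.8 CPM. Of 10091 genes measured, 3.46% were at least 2-fold higher and 5.89% lower with Arg1. With Cxcl3 it was 7.16% and 24.2%.

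Chil3 went with monocyte genes. The 468 members with Chil3 held 57.0 CPM of Ly6c2 against 0.842 CPM in the 396 without, 117 against 8.42 CPM of Saa3, 345 against 42.1 CPM of Plac8 and 192 against 24.4 CPM of Slpi. F10 stood at 118 against 36.2 CPM and Il1r2, a decoy receptor gene for interleukin 1, at 146 against 23.6 CPM. Of 19 monocyte genes 11 were at least 2-fold higher with Chil3 and 0 lower, beside 4.14% and 4.20% of all 10091 genes. Thbs1 had a similar company in part: Vcan stood at 48.9 CPM in the 552 members with Thbs1 against 4.27 CPM in the 312 without, and Saa3 at 99.0 against 10.7 CPM. Of 19 monocyte genes 7 were higher with Thbs1 and 0 lower, beside 5.3% and 4.21% of all genes. Members with Thbs1 also held more Arg1, at 1012 against 350 CPM. Of the genes that went with Arg1, Ppbp stood at 99.6 against 19.2 CPM and Ccl24 at 114 against 23.5 CPM.

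Mmp12 went with another set of genes. The 248 members with Mmp12 held 1005 CPM of Gpnmb against 269 CPM in the 616 without, 449 against 65.5 CPM of Mfge8 and 79.3 against 16.2 CPM of Ctsk, the cathepsin K gene. The collagenase gene Mmp13 stood at 53.8 against 5.41 CPM, the lipoprotein lipase gene Lpl at 538 against 189 CPM and Fabp5 at 1511 against 617 CPM. These genes act in the uptake or breakdown of lipid, matrix or dying cells. Chil3 was lower with Mmp12, at 743 against 2615 CPM, and so were Fn1, at 382 against 884 CPM, and Ly6c2, at 8.06 against 40.6 CPM. The rule favours such a contrast, since members lacking a selecting gene must hold others. Over all 1377 cells Chil3 was seen in 29.0% of those with Mmp12 and in 41.4% of those without. How far the rule bears on Fn1 and Ly6c2 was not tested. Of the 18 lipid-associated genes, 1 of them a gene of the rule, 5 were at least 2-fold higher with Mmp12 and 0 lower. Of 19 monocyte genes 0 were higher and 6 lower. Among all genes 3.59% were higher and 6.36% lower.

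**Figure D5:**
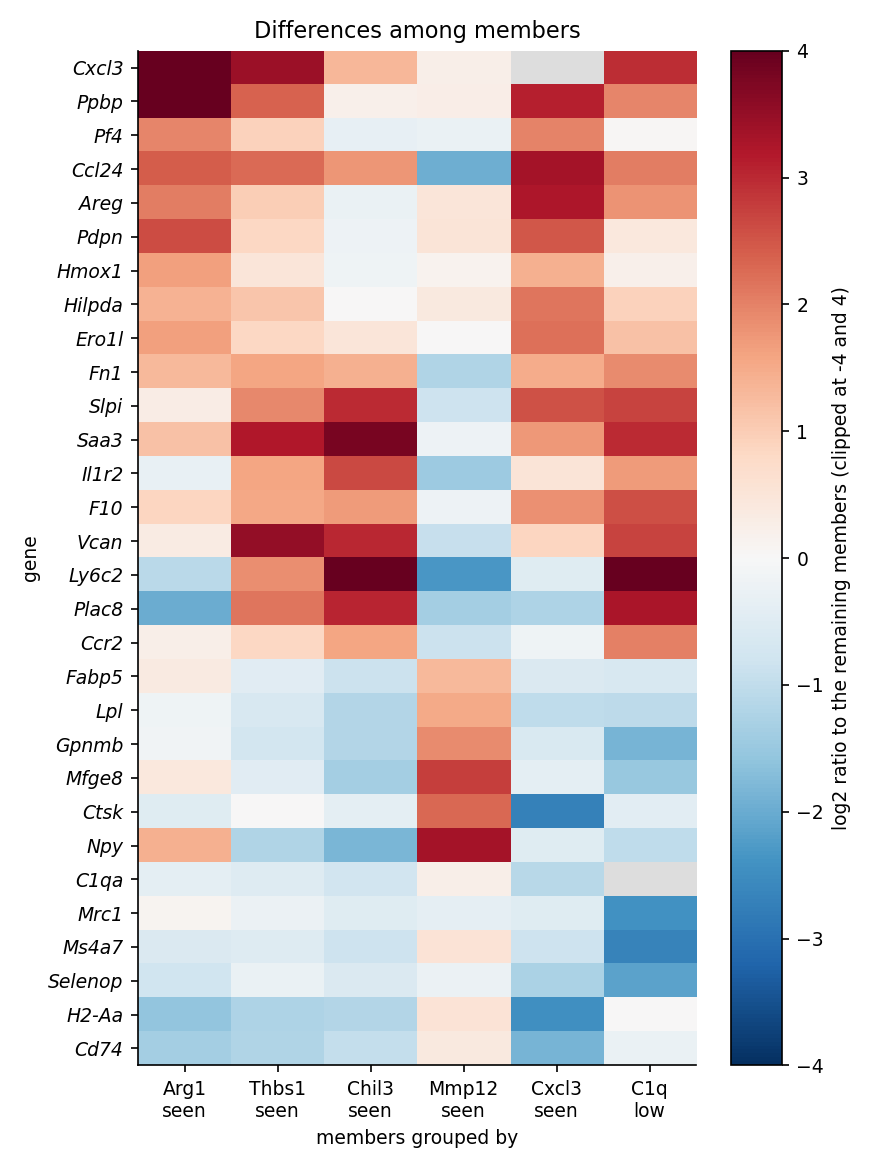
Log2 ratio (colour, clipped at -4 and 4) of each gene (rows) between leukocyte-positive members grouped by a selecting gene with a UMI or by low C1q (columns) and the remaining members, with 864 members thinned to 3000 UMIs. Grey cells are the gene used for the grouping. Plac8 and Ly6c2 are lower with Arg1 and Mmp12 and higher with Chil3 and low C1q, and Ly6c2 stands at 57.0 against 0.842 CPM by Chil3.

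Splitting the members by C1q, which the rule did not use, separated monocyte from macrophage genes. The 183 members under 0.3% held 124 CPM of Ly6c2 against 6.36 CPM in the 681 at or above it, 703 against 72.9 CPM of Plac8, 262 against 65.1 CPM of Ccr2 and 235 against 39.2 CPM of F10. The macrophage genes Ms4a7 (126 against 799 CPM), Mrc1, the mannose receptor (49.2 against 264 CPM), and Selenop (415 against 1829 CPM) were lower. Chil3 was seen in 80.9% (74.4 to 86.3%) of C1q-low and 47.0% (43.2 to 50.8%) of C1q-high members, and Cxcl3 in 16.9% (11.8 to 23.2%) and 4.11% (2.75 to 5.89%). Mmp12 was seen in 16.4% (11.3 to 22.6%) and 32.0% (28.5 to 35.7%). Arg1 was seen in 44.3% (36.9 to 51.8%) and 37.9% (34.2 to 41.6%), whose intervals overlap. Of 19 monocyte genes 12 were at least 2-fold higher on the C1q-low side and 1 lower, beside 5.41% and 13% of all genes. Gzma and Nkg7, genes of NK and T cells, were higher there too, at 208 against 6.36 CPM and 51.0 against 2.45 CPM, and their part in the split was not tested. C1q had no gap at the limit, as 107 of the 864 members (12.4%) lay between 0.2% and 0.5%.

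For all 1554 members without the leukocyte limit, the comparisons were led by genes of other cell types. Against the other 2061 AKT1.MYC phagocytes 318 of 16695 genes (1.9%) were at least 2-fold higher and 750 (4.49%) lower, and S100a4 alone met the rule for naming among the higher ones. Lower ones included Esam, Gpihbp1 and Plpp1, which endothelial cells express, and with leukocyte-positive cells alone these 3 no longer passed 2-fold. Against all 1802 NRAS.MYC.ND phagocytes 2638 of 17306 genes (15.2%) were higher and 2844 (16.4%) lower. Collagen genes were among the leading higher ones: Col1a1 stood at 893 CPM in all members, at 1628 CPM in the 421 members under the leukocyte limit and at 123 CPM in the leukocyte-positive members. Fibroblast markers summed to 4380 CPM in those 421 and to 355 CPM in the leukocyte-positive members.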

How the data were processed

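The authors deposited unnormalised UMI counts of 55450 genes per barcode, with 1 library per model. Per the file headers the counts were made with Cell Ranger 6.1.1, and per the submitters' processing notes with 6.1.2 on mm10. Which annotation was counted is not stated in the labels or headers. Kept barcodes held 63990240 UMIs in the AKT1.MYC library and 42003184 in the other, each barcode at least 500.

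The members and gene lists were chosen with earlier results of these data known, and the limits on leukocyte and C1q genes and the depth of 3000 UMIs were set after seeing the data. UMIs were summed per set and scaled to 1000000 (CPM). Sums have exact Poisson intervals, ratios exact conditional binomial and shares exact Clopper-Pearson intervals, at 95%. Where a count was 0, the limit given is 3 counts of the total, which lies below the upper bound of the exact two-sided interval. Genes with 10 or more UMIs over a pair of sets entered a comparison and counted as higher or lower at 2-fold. The 19 genes of the rule were left out of counts and lists in the comparisons between sets. The splits of members left out only the genes used for the split, so their counts and lists hold the other genes of the rule. Genes named were those of the rule, list members, and up to 10 per direction and comparison with at least 50 CPM in the higher set, 30 UMIs, a ratio interval beyond 2-fold and a level at least 0.5 times that of the library's kept cells; mitochondrial, ribosomal, haemoglobin, receptor segment, Xist, Y-linked and unnamed genes were left out. Genes named in the splits of members come from lists or from the same kind of ranking, and a few were chosen after their values were seen. The comparisons within C1q-high and C1q-low cells were added after seeing the data. Doublets were not removed in the main values; the highest Scrublet scores (Scanpy 1.11.5) marked 5.56% of leukocyte-positive and 5.94% of the other members, and leaving them out was an alternative. Thinning drew UMIs without replacement. Python 3.11.15, NumPy 2.4.6 and SciPy 1.17.1 were used. The code was tested on simulated data.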

Additional observations from a re-analysis of the deposited data

How the results depend on the processing

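The number of members was 1554 by the rule, 306 with barcodes thinned to 1000 UMIs, 619 with at least 3 of the 5 genes and 972 with leukocyte genes at 0.5% or more. Their share of the phagocyte gate, 43.0%, became 16.3% when thinned, 17.1% with at least 3 genes, 48.9% with epithelial genes below 0.1%, 41.0% with 0 Kupffer genes, and 46.8%, 44.9% and 53.6% with leukocyte genes at 0.3%, 0.2% and 0.5% or more. Against the other AKT1.MYC phagocytes, 318 higher genes became 668 with equal weight per cell, 97 with at least 30 UMIs and 836 against cells with 0 of the 5 genes, and 750 lower genes became 1545 when thinned, 1318 with equal weight and 310 with at least 30 UMIs. Against NRAS.MYC.ND, 2638 higher genes became 920 when thinned and 1650, 1723 and 1614 at the 3 leukocyte limits, and 2844 lower genes became 1610 when thinned. The limit of 30 UMIs tests fewer genes; otherwise the cause was not tested. Ratios with 0 UMIs in a set gave no value in 17 cases. No other ratio that was run under these settings and had passed 2-fold changed sign. Those ratios were of the rule's genes and of genes named against NRAS.MYC.ND or, within AKT1.MYC, for all members. Ratios within AKT1.MYC of genes named only for leukocyte-positive cells were not run. These were Ppbp, F10, Saa3, Slpi, Fn1, Cd69, H2-Eb1, H2-Aa, Cd74 and H2-Ab1. Thinned to 1000 UMIs, Ccl8 stood at a log2 ratio of -0.70 within AKT1.MYC, no longer past 2-fold. No paired analysis was possible because each group has 1 library; for the same reason no replicate could be left out.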
